A study of Homo sapiens with 52 samples.

Results

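The UNC13 family was followed here through its neuronal members UNC13A, UNC13B and UNC13C, which are 3 of the 63241 genes in the count table. They were found by gene symbol, each symbol matched 1 Ensembl identifier, and all 3 passed the filter on low counts in every comparison. RNA was sequenced from i3Neurons, human neurons made from the induced pluripotent stem cell line WTC11 by doxycycline induction. The neurons were moved on day 3 onto inserts with 1 µm pores through which neurites grow while cell bodies stay above, and on day 17 a soma fraction and a neurite fraction were harvested. Untreated neurons carried no guide RNA and gave 4 libraries per fraction (samples 4 to 7). In the hnRNPA1 experiment, CRISPR interference, which silences a gene through a guide RNA and an inactive Cas9, was aimed at HNRNPA1 (6 knockdown libraries per fraction) or used a non-targeting guide (6 control libraries per fraction). In the TDP-43 experiment the target was TARDBP, which encodes TDP-43, and each fraction gave 5 libraries with the guide against it and 5 with a non-targeting guide. Sample 5 of the knockdown soma was nearly empty and is not used, so that group has 4 libraries and the series 51. All neurons came from 1 cell line. Untreated libraries were made with version 2 of the library kit and all others with version 3, so kit and guide RNA cannot be told apart in any comparison of untreated with control neurons. The labels do not say that numbered samples were separate cultures, so p-values measure the spread between these samples, which may be technical.

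UNC13 proteins are large scaffolds of the presynaptic active zone. Their MUN domain opens the SNARE protein syntaxin, a step called priming, which makes a docked vesicle ready to fuse, and their C1 and C2 domains let diacylglycerol and calcium tune that step. UNC13A (Munc13-1) is the main priming factor of most glutamatergic synapses, UNC13B encodes Munc13-2 in a brain form and a widely expressed form, and UNC13C (Munc13-3) is best known from the cerebellum. UNC13A and UNC13B are also known targets of TDP-43 in human neurons: TDP-43 binds UG-rich RNA and holds back cryptic exons in their introns. A gene count cannot show such exons, and splicing was not analysed here.

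In hg38, with the annotation of GENCODE release 29, UNC13A (ENSG00000130477.16) lies on the minus strand of chromosome 19, from 17601328 to 17688365, and its exons merge into 45 blocks of 11.19 kb in a span of 87.0 kb. UNC13B (ENSG00000198722.15) lies on the plus strand of chromosome 9, from 35161992 to 35405338, with 47 blocks of 17.92 kb in 243.3 kb. UNC13C (ENSG00000137766.18) lies on the plus strand of chromosome 15, from 53978201 to 54633414, with 37 blocks of 14.44 kb in 655.2 kb. No exon of the 3 overlaps an exon of another annotated gene (0 bp). UNC13C holds HNRNPA1P74, a processed pseudogene of HNRNPA1, on the opposite strand of an intron, and that pseudogene had at most 11 counts in a library.

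Since TDP-43 prefers UG repeats, the longest uninterrupted run of alternating T and G in the longest protein-coding transcript of each gene is shown, as DNA letters of the transcript strand, 5′ to 3′, in a window of 30 bases with the run in capitals.
UNC13A: acctccGTGTGTGTGTGTGTGTGTttaggg
UNC13B: ctctttgccacTGTGTGTGagaagacggtt
UNC13C: ttgagtatctcTGTGTGTGcttatttgaca
The UNC13A run has 18 bases and lies in the 3′ UTR in exon 44 of 44 of transcript UNC13A-202, with its window at chr19:17603214-17603243 on the minus strand. The UNC13B run has 8 bases and lies in coding sequence in exon 34 of 40 of UNC13B-209 (chr9:35399168-35399197, plus strand). The UNC13C run has 8 bases and lies in the 3′ UTR in exon 32 of 32 of UNC13C-201 (chr15:54632095-54632124, plus strand). A run of 18 bases or more occurred in 2.2% of the longest protein-coding transcripts of 19684 genes, and in 10.1% of the 969 such transcripts of at least 9000 bases, the class to which all 3 belong. A run of 8 bases or more occurred in 21.6% and 58.2% of them. A match is a description of the sequence and does not show binding. Introns, which hold the cryptic exons named above, were not searched.

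Depth, in units of 1000000 counts per library, was 2.54 to 4.35 in untreated neurites and 5.21 to 10.5 in untreated soma. The hnRNPA1 experiment had 6.26 to 15 in its neurite libraries and 8.0 to 19.4 in its soma libraries, and the TDP-43 experiment had 6.83 to 14.5 for neurites and 15.7 to 28.9 for soma. UNC13A had 295 to 6719 counts per library, UNC13B 538 to 3540 and UNC13C 279 to 4396. Markers of the labelled identity were present, with 6050 to 20000 CPM (counts per 1000000 counts) summed over 10 neuronal markers, and 123 to 282 CPM over 2 glutamatergic markers. A median over libraries under 1 CPM was found for all 3 microglial genes (AIF1, CX3CR1 and P2RY12), for 5 of 7 glial genes (GFAP, AQP4, ALDH1L1, MOG and OLIG2, but not MBP), for 4 of 5 pluripotency genes (all but LIN28A), for 2 of 3 inhibitory genes (all but GAD1), for 4 of 5 mesenchymal genes (all but COL1A1) and for 1 of 5 cell cycle genes (CDK1). The sums of these whole lists reached at most 4.72, 45.1, 11.8, 13.2, 22.8 and 44.7 CPM in that order. By contrast, 0 of 5 neural progenitor genes had a median under 1 CPM. Their sum reached 681 CPM, above the glutamatergic sum, and is given by group below. The targeted genes fell where the labels put the knockdown, HNRNPA1 by 1.36 ± 0.06 (log2 ± SE) in soma and 1.55 ± 0.06 in neurites, and TARDBP by 2.50 ± 0.07 and 1.48 ± 0.06 (edgeR, largest adjusted p = 5.9e-16). The 7SL RNA, a small cytoplasmic RNA of the signal recognition particle, took 17.2 to 45.7% of the counts in TDP-43 control neurites and 5.65 to 31.7% in TDP-43 knockdown neurites. It exceeded 30% in control samples 4 and 5 and knockdown sample 2. Most tests of the 3 UNC13 genes that use these 3 libraries, and counts over a whole gene list, are also given without them. Tests of single other genes, TARDBP among them, and counts by role within a list are given only with them, as are levels, shares and correlations.

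Levels of the 3 genes were set side by side on 1 scale for all 51 libraries. UNC13A was between 138 and 359 CPM in every library. Its group means ran from 333 ± 19.2 CPM (SD, n = 6) in hnRNPA1 knockdown neurites and 325 ± 31.8 in their controls, through 286 ± 9.07 (n = 5) in TDP-43 control soma, 275 ± 11.7 (n = 6) in hnRNPA1 knockdown soma, 273 ± 38.4 (n = 5) in TDP-43 control neurites and 255 ± 9.97 (n = 6) in hnRNPA1 control soma, whose ranges overlapped from each to the next. TDP-43 knockdown soma followed at 221 ± 15.3 CPM (n = 4). Its range of 202 to 240 overlapped that of TDP-43 control neurites (215 to 311) and lay below those of the other groups named so far. Below a gap came untreated soma at 176 ± 26.2 (n = 4), TDP-43 knockdown neurites at 162 ± 8.09 (n = 5) and untreated neurites at 162 ± 23.4 (n = 4), which overlapped in turn. TDP-43 knockdown neurites therefore had the lowest UNC13A level of any guide-carrying group.

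UNC13B, the most even of the 3 outside untreated neurites, stood at 265 ± 18.4 CPM (SD, n = 4) in untreated neurites, apart from all other groups. The next 6 groups formed an overlapping run: hnRNPA1 control neurites at 178 ± 8.52 CPM, hnRNPA1 knockdown neurites at 169 ± 7.62 (n = 6 each), TDP-43 control neurites at 158 ± 7.26, TDP-43 control soma at 151 ± 3.05 (n = 5 each), hnRNPA1 control soma at 146 ± 5.21 and hnRNPA1 knockdown soma at 145 ± 6.39 (n = 6 each). A lower run held TDP-43 knockdown neurites at 127 ± 5.01 CPM (n = 5), untreated soma at 115 ± 13.5 and TDP-43 knockdown soma at 99.2 ± 5.70 (n = 4 each).

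UNC13C spanned the widest range, from 29.4 to 1130 CPM. Untreated neurites stood alone at 1070 ± 71.3 CPM (SD, n = 4). Control neurites followed, at 125 ± 12.2 (n = 6) in the hnRNPA1 experiment and 125 ± 26.8 (n = 5) in the TDP-43 experiment, and those groups overlapped. Untreated soma at 74.6 ± 5.03 CPM (n = 4), hnRNPA1 knockdown neurites at 71.1 ± 14.0 (n = 6) and TDP-43 knockdown neurites at 65.4 ± 2.84 (n = 5) overlapped in turn. The other soma groups were lowest, at 55.4 ± 3.22 (n = 5) and 46.2 ± 3.54 (n = 6) in TDP-43 and hnRNPA1 controls, 39.6 ± 2.84 (n = 6) in hnRNPA1 knockdown and 30 ± 0.588 (n = 4) in TDP-43 knockdown, where the last group was separate from the rest.

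**Figure D1:**
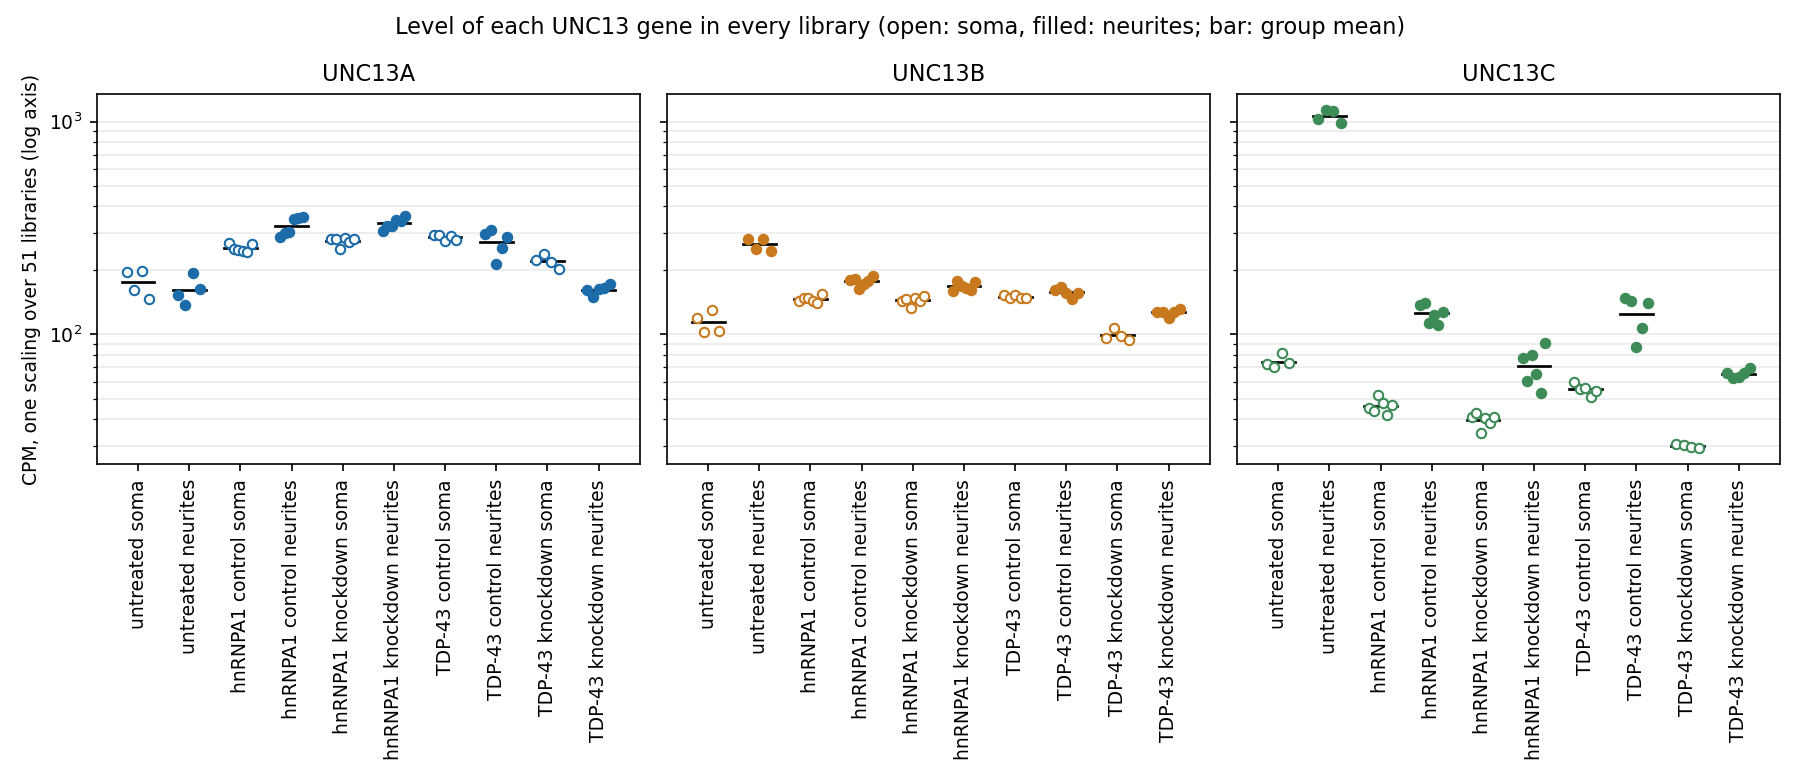
CPM on 1 scale for 51 libraries (log axis) of UNC13A, UNC13B and UNC13C in 10 groups, with 1 point per library (open for soma, filled for neurites) and a bar at the group mean. UNC13C in the 4 untreated neurite libraries, at 988 to 1130 CPM, stands apart from every other point.

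Because longer transcripts give more fragments, the members were compared with each other only per kb of exon. UNC13A had the highest level per kb in every group but untreated neurites, for example 25.6 ± 0.811 CPM per kb (SD, n = 5) in TDP-43 control soma, where UNC13B had 8.41 ± 0.170 and UNC13C 3.83 ± 0.223. In untreated neurites the order was reversed: UNC13C had 74.1 ± 4.94 CPM per kb (n = 4), UNC13B 14.8 ± 1.03 and UNC13A 14.5 ± 2.09, and the last 2 overlapped. As a share of the 3 genes' summed level per kb, UNC13A made up 55.5 to 72.2% in the 9 other groups and 14.0 ± 1.73% in untreated neurites. UNC13C made up 71.7 ± 2.17% there and 19.1 ± 1.73% in untreated soma (n = 4 each). Its share was lowest in TDP-43 knockdown soma, at 7.59 ± 0.384% (n = 4), and hnRNPA1 knockdown soma overlapped that group at 7.74 ± 0.255% (n = 6). Exonic length is that of all annotated exons together, so a gene that uses a short isoform has a level per kb set too low.

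**Figure D2:**
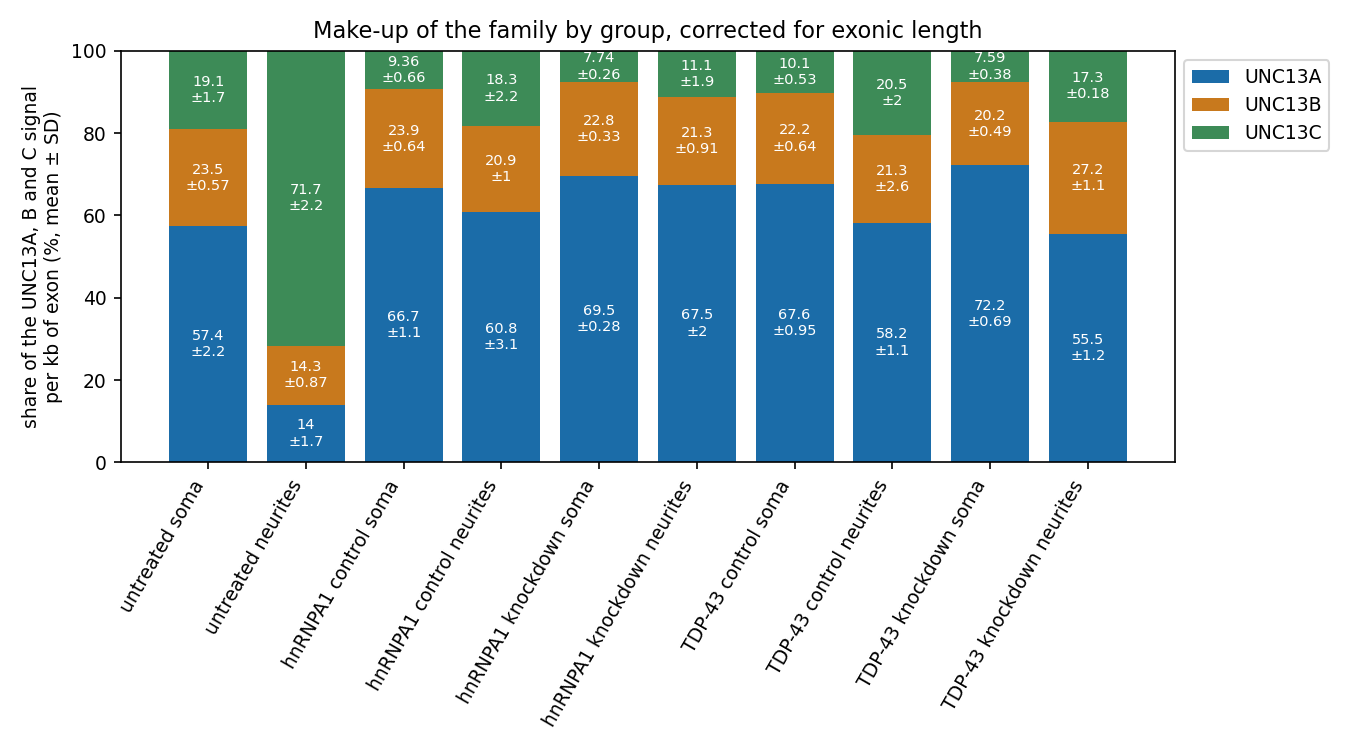
Share (%) of each gene in the summed level per kb of exon of UNC13A, UNC13B and UNC13C in each of 10 groups, as stacked means with mean ± SD over libraries written in each segment. UNC13A takes the largest share in 9 groups and UNC13C, at 71.7%, in untreated neurites.

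The first comparison asked which UNC13 RNAs were enriched in neurites over soma. Here and in all tests that follow, CPM are scaled within the experiment that was fitted. In untreated neurons UNC13C was at 1370, 1550, 1460 and 1310 CPM in neurites (samples 4 to 7) and at 81.8, 78.4, 89.6 and 82.3 in soma. Every neurite library was over 10 times higher than every soma library. The log2 ratio was 4.10 ± 0.12 (SE), 17.1-fold, with adjusted p = 7.5e-17 by edgeR's quasi-likelihood test, and UNC13C had rank 126 from the top among 18556 genes. UNC13B was at 370, 344, 365 and 328 CPM in neurites and at 136, 115, 143 and 116 in soma, groups that were also well apart (1.46 ± 0.10, 2.75-fold, adjusted p = 4.7e-11). UNC13A was at 204, 189, 251 and 218 CPM in neurites and at 222, 178, 217 and 165 in soma. These groups overlapped, and the log2 ratio of 0.14 ± 0.11 missed the threshold (adjusted p = 0.28, interval of 95% from -0.08 to 0.37), with the opposite sign in a fit of all libraries (-0.11) and with scaling by total counts (-1.08, all-gene median -1.43). In this contrast 28.7% of all genes were called higher and 27.8% lower in neurites, with a median log2 ratio over all genes of -0.21, against 11% and 80.4% with scaling by total counts, where UNC13C was 2.86 higher (adjusted p = 4.2e-13) and UNC13B only 0.22 (adjusted p = 0.02).

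In the hnRNPA1 experiment's controls all 3 genes were called higher in neurites, beside 23.5% of all genes (24.9% were called lower). UNC13C had a lowest, median and highest level of 110, 125 and 139 CPM in neurites and of 44, 45.7 and 51.8 in soma, so the ranges were far apart (1.43 ± 0.08, 2.69-fold, adjusted p = 7.1e-16). UNC13A had 286, 325 and 353 CPM in neurites against 248, 255 and 268 in soma (0.33 ± 0.05, adjusted p = 3.6e-06). UNC13B had 163, 178 and 188 against 140, 147 and 156 (0.27 ± 0.04, adjusted p = 4.2e-06). Neither of these pairs of groups overlapped. The share of all genes whose groups do not overlap was not computed for any comparison. A lack of overlap, here and below, therefore only describes the libraries. The UNC13A and UNC13B differences were small and turned sign when libraries were scaled by total counts only, to -0.02 and -0.09, a scaling under which the median of all genes moved from -0.05 to -0.40 and 9.65% of all genes were called higher.

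In the TDP-43 experiment's controls UNC13C was at 139, 136, 83.1, 101 and 132 CPM in neurites (samples 1, 2, 4, 5 and 6) and at 53.9, 49.5, 50.6, 46.3 and 49.5 in soma, with no overlap (1.25 ± 0.09, 2.39-fold, adjusted p = 2.6e-12). The lowest neurite values, 83.1 and 101, belonged to samples 4 and 5, the ones with 45.7 and 33.9% of counts in 7SL RNA, and without the 3 libraries over 30% the log2 ratio was 1.43. UNC13A was at 279, 294, 205, 239 and 272 CPM in neurites and at 264, 261, 247, 264 and 254 in soma. Its neurite libraries spread to both sides of the soma libraries, again with samples 4 and 5 lowest, and the difference missed the threshold (0.00 ± 0.07, adjusted p = 0.98, interval from -0.13 to 0.14), with -0.59 under scaling by total counts. UNC13B was at 151, 157, 150, 138 and 148 CPM in neurites and at 138, 133, 139, 135 and 135 in soma. The difference of 0.13 ± 0.05 passed the test (adjusted p = 0.028), but not without control neurite sample 1 or 2 or soma sample 2, 5 or 6 (0.11 to 0.13, highest adjusted p = 0.082), and it turned to -0.48 with scaling by total counts, where the median of all genes was -0.63. In this contrast 24.1% of all genes were called higher, and 8.59% with scaling by total counts.

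Knockdown of hnRNPA1 left all 3 genes called higher in neurites (beside 19.4% of all genes), UNC13C by 0.82 ± 0.09, UNC13A by 0.25 ± 0.05 and UNC13B by 0.19 ± 0.04 (largest adjusted p = 0.00056). UNC13A and UNC13B again turned sign with scaling by total counts (-0.19 and -0.25, all-gene median -0.46). After TDP-43 knockdown the members parted: beside 28.7% of all genes called higher and 29% called lower, UNC13C (1.2 ± 0.10, adjusted p = 9.8e-11) and UNC13B (0.40 ± 0.05, adjusted p = 2.5e-07, but -0.14 with scaling by total counts, all-gene median -0.56) were higher in neurites, and UNC13A was lower there (-0.40 ± 0.07, adjusted p = 4.6e-05). Without the 3 libraries rich in 7SL RNA the ratios of UNC13A and UNC13B were 0.11 (adjusted p = 0.11) and 0.15 (adjusted p = 0.02) in TDP-43 controls and -0.38 and 0.39 after TDP-43 knockdown, where UNC13C was again 1.2. UNC13C was thus the member with the highest neurite-to-soma ratio in all 5 settings, and the call held under every alternative and left-out library that was run, with ratios of 2.86, 1.07, 0.37, 0.67 and 0.63 under scaling by total counts (untreated, hnRNPA1 controls and knockdown, TDP-43 controls and knockdown).

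**Figure D3:**
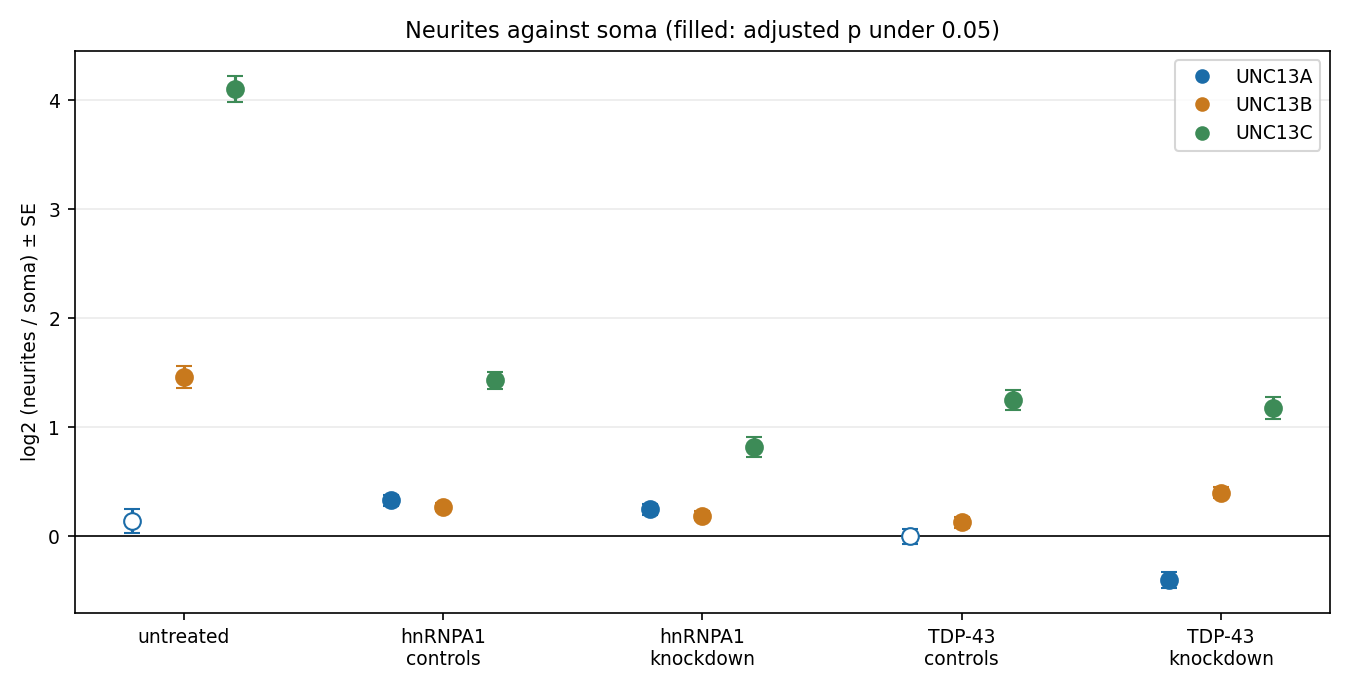
Log2 ratio of neurites to soma ± SE of each gene in untreated neurons and in the controls and knockdowns of each experiment (filled symbols have adjusted p under 0.05). UNC13C lies highest in each setting, at 4.10 in untreated neurons, while the UNC13A ratios of 0.33, 0.25 and 0.14 and the UNC13B ratios of 0.27, 0.19, 0.13 and 0.40 change sign when libraries are scaled by total counts.

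The neurite-to-soma ratio itself differed between untreated and control neurons for UNC13B and UNC13C. In a joint fit of untreated and control libraries the log2 ratio of UNC13C was 2.40 ± 0.14 higher in untreated neurons than in hnRNPA1 controls (adjusted p = 3.1e-18) and 2.66 ± 0.14 higher than in TDP-43 controls (adjusted p = 7.2e-19), where 13.1% and 13.5% of all genes were called higher. UNC13B was 0.93 ± 0.10 and 1.1 ± 0.10 higher (adjusted p = 7.1e-11 and 8.9e-13), but with scaling by total counts these differences were 0.33, no longer called (adjusted p = 0.055), and 0.72 (adjusted p = 0.00015), and those of UNC13C 1.81 and 2.21. The UNC13A ratio was 0.45 lower on the log2 scale (-0.45 ± 0.13, adjusted p = 0.0057) against hnRNPA1 controls, close to the median of all genes in that contrast (-0.41) and short of the threshold with DESeq2's size factors (-0.26, adjusted p = 0.12), and -0.04 ± 0.14 against TDP-43 controls (adjusted p = 0.84, but 0.10 with DESeq2's size factors and, past the threshold, -0.48 with scaling by total counts, adjusted p = 0.033). The all-gene medians were -0.41 against hnRNPA1 controls and -0.48 against TDP-43 controls, and -1.01 and -0.92 with scaling by total counts. Kit version and depth also differed between untreated and control libraries, so their part in these ratio differences cannot be told apart from that of the cells. The ratios in hnRNPA1 controls minus those in TDP-43 controls were 0.41 ± 0.12 for UNC13A (adjusted p = 0.047, beside 1.59% of all genes called higher and 1.47% lower), 0.21 ± 0.09 for UNC13B (adjusted p = 0.17) and 0.25 ± 0.13 for UNC13C (adjusted p = 0.29). The UNC13A call was lost without any 1 of 16 of the 22 libraries. It held without hnRNPA1 control neurite sample 2 or 3, hnRNPA1 control soma sample 1, or TDP-43 control neurite sample 1, 2 or 6, and across all left-out libraries the value was 0.34 to 0.46. Without TDP-43 control neurite samples 4 and 5, both rich in 7SL RNA, it was 0.29 (adjusted p = 0.22), and the ratios in untreated neurons minus those in TDP-43 controls were -0.17 for UNC13A (adjusted p = 0.34), 1.1 for UNC13B and 2.46 for UNC13C (adjusted p = 1e-11 and 1.8e-20).

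The second comparison was of TDP-43 knockdown with control in each fraction. All 3 genes fell in both fractions, beside 9.53% of all genes called lower in soma and 10.9% in neurites (14% were called higher there, and 3.58% lower and 8.14% higher with scaling by total counts). In these bulk fractions a lower level in each cell and fewer cells or neurites of one kind cannot be told apart.

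UNC13C, the least abundant member in soma, fell most. In soma it was at 53.9, 49.5, 50.6, 46.3 and 49.5 CPM in controls and at 28, 27.1, 26.7 and 26.6 in knockdown samples 1 to 4. Every knockdown library was below every control library, and the log2 change was -0.88 ± 0.10 (a drop to 0.542 of control, adjusted p = 6.6e-08). In neurites it was at 139, 136, 83.1, 101 and 132 CPM in controls and at 61.9, 59.8, 58.8, 60.2 and 64.6 in knockdown samples 1 to 5. The groups again did not overlap (-0.96 ± 0.09, 0.513 of control, adjusted p = 7.7e-09). Without the 3 libraries rich in 7SL RNA the change in neurites was -1.14 (adjusted p = 1e-14).

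UNC13A was at 264, 261, 247, 264 and 254 CPM in control soma and at 204, 214, 199 and 183 in knockdown soma, with no overlap (-0.37 ± 0.07, 0.775 of control, adjusted p = 0.00047). In neurites it was at 279, 294, 205, 239 and 272 CPM in controls and at 151, 143, 152, 152 and 160 in knockdown. Even control sample 4, at 205, was above all knockdown libraries (-0.77 ± 0.07, 0.587 of control, adjusted p = 4.5e-09). Without the 3 libraries rich in 7SL RNA this change was -0.87 (adjusted p = 2.6e-12). The soma call was lost with scaling by total counts, at the same size (-0.37, adjusted p = 0.17).

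UNC13B, by contrast, had the larger change in soma. It was at 138, 133, 139, 135 and 135 CPM in control soma and at 87.9, 96.0, 89.5 and 85.4 in knockdown soma, a clear separation of tight groups (-0.60 ± 0.05, 0.66 of control, adjusted p = 6.6e-10). In neurites it was at 151, 157, 150, 138 and 148 CPM in controls and at 121, 123, 110, 117 and 122 in knockdown, with a narrower gap but still no overlap (-0.33 ± 0.05, 0.797 of control, adjusted p = 1.8e-05, lost with scaling by total counts at -0.26, adjusted p = 0.21). Without the libraries rich in 7SL RNA the value was -0.37 (adjusted p = 1.2e-05).

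The difference between fractions was tested as the interaction of knockdown and fraction, which was called in the lower direction for 4.67% and in the higher direction for 5.81% of all genes. The members went different ways. The neurite-to-soma ratio of UNC13A fell with knockdown (-0.40 ± 0.10, adjusted p = 0.012), that of UNC13B rose (0.27 ± 0.07, adjusted p = 0.015), and that of UNC13C changed by -0.08 ± 0.13 (adjusted p = 0.77, interval from -0.34 to 0.18). Without the 3 libraries rich in 7SL RNA the values were -0.49 (adjusted p = 0.00011), 0.24 (adjusted p = 0.031) and -0.24 (adjusted p = 0.043), so UNC13C then passed the threshold, in the direction of UNC13A. Scaling by total counts ended both calls (UNC13A -0.35, adjusted p = 0.48, UNC13B 0.34, adjusted p = 0.43), and the UNC13B call was also lost with no filter on low counts (0.26, adjusted p = 0.13).

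The third comparison was of hnRNPA1 knockdown with control. UNC13C alone of the 3 was called, and in neurites only, where 7.21% of all genes were called lower. Its lowest, median and highest levels there were 110, 125 and 139 CPM in controls and 53.9, 71.9 and 91.2 in knockdown, so the highest knockdown library was below the lowest control library (-0.80 ± 0.08, 0.573 of control, adjusted p = 3e-08). The 7SL RNA took 5.55 to 12.2% of counts in these control neurites and 10.1 to 18.5% in the knockdown neurites. The UNC13C call held in 8 of 8 other settings (-0.95 to -0.80), removal of the 7SL genes among them. Beyond that removal the part of 7SL RNA in the result was not tested. The knockdown libraries spread more widely than the controls, from 53.9 in sample 5 to 91.2 in sample 6. In soma the levels were 44, 45.7 and 51.8 CPM in controls and 37.2, 40.9 and 43 in knockdown. Those ranges did not overlap either, but the difference of -0.20 ± 0.08 missed the threshold (adjusted p = 0.17), which 3.3% of all genes passed in that direction. The change in neurites was larger than in soma by an interaction of -0.61 ± 0.12 (adjusted p = 0.021), in a contrast where 0.131% of all genes were called lower and 0.0454% higher. That call was lost without control neurite sample 1 or 2 (-0.57 and adjusted p = 0.051 in each case) or knockdown neurite sample 2 (-0.56, adjusted p = 0.071).

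UNC13A and UNC13B did not pass the test after hnRNPA1 knockdown. UNC13A was at 248, 255 and 268 CPM (lowest, median and highest) in control soma and at 272, 284 and 289 in knockdown soma, ranges that did not overlap, with a difference of 0.14 ± 0.05 (adjusted p = 0.12, interval from 0.03 to 0.24). In neurites its levels were 286, 325 and 353 against 311, 334 and 360 CPM, which overlapped (0.05 ± 0.05, adjusted p = 0.57, interval from -0.05 to 0.16, and -0.09 with scaling by total counts). UNC13B was at 140, 147 and 156 CPM in control soma and 143, 148 and 154 in knockdown soma (0.01 ± 0.04, adjusted p = 0.95, interval from -0.08 to 0.09, and -0.05 with scaling by total counts). In neurites it was at 163, 178 and 188 against 162, 167 and 178 (-0.06 ± 0.04, adjusted p = 0.36, interval from -0.15 to 0.02), and with scaling by total counts this difference passed the threshold (-0.20, adjusted p = 0.01) beside an all-gene median of -0.14.

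**Figure D4:**
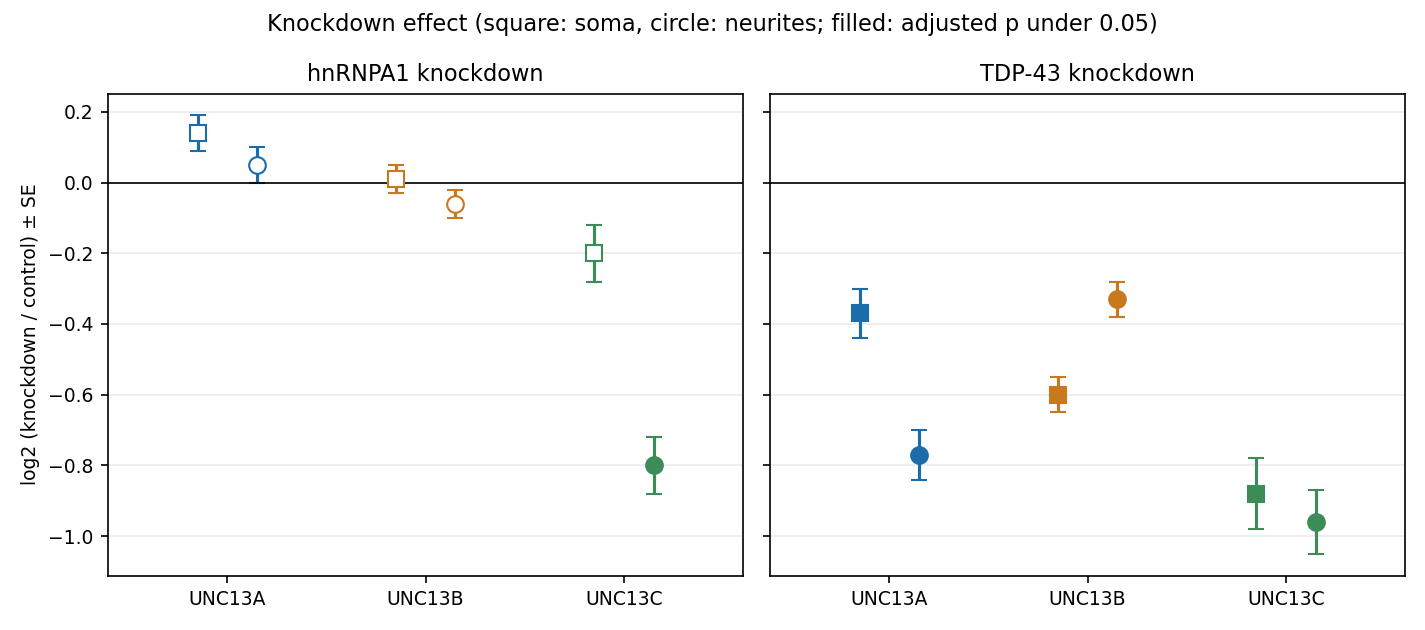
Log2 change with knockdown ± SE of each gene, for hnRNPA1 (left) and TDP-43 (right), with squares for soma, circles for neurites and filled symbols for adjusted p under 0.05. All 6 TDP-43 values lie below 0, from -0.33 to -0.96, and of the 6 hnRNPA1 values only UNC13C in neurites, at -0.80, is called.

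The TDP-43 effect minus the hnRNPA1 effect was tested directly in a fit of both experiments. The knockdowns were of unlike strength. TARDBP changed by -2.5 in soma and -1.48 in neurites, and HNRNPA1 by -1.36 and -1.55 (log2). They were also made in separate experiments. The part of knockdown strength and of experiment in the differences was not tested. In soma, where 6.12% of all genes were called lower and 6.59% higher, the difference was -0.50 ± 0.09 for UNC13A (adjusted p = 5.8e-05), -0.60 ± 0.06 for UNC13B (adjusted p = 2.9e-10) and -0.68 ± 0.14 for UNC13C (adjusted p = 0.00024). The UNC13A call in soma was lost with scaling by total counts (-0.45, adjusted p = 0.084). In neurites, where 6.37% were called lower, it was -0.80 ± 0.09 for UNC13A (adjusted p = 1.1e-09) and -0.25 ± 0.06 for UNC13B (adjusted p = 0.0034). The UNC13B call was lost with scaling by total counts (-0.06, adjusted p = 0.82) and with no filter on low counts (-0.23, adjusted p = 0.14). UNC13C in neurites, which fell under both knockdowns, had a difference of -0.14 ± 0.13 (adjusted p = 0.52, interval from -0.40 to 0.11), so its effects were not told apart, and the sign turned (0.03) with scaling by total counts. Without the libraries rich in 7SL RNA the differences in neurites were -0.91, -0.29 and -0.33 for UNC13A, UNC13B and UNC13C (adjusted p = 1.5e-11, 0.0023 and 0.058).

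Markers of other cells were read beside these results. The summed CPM of 5 neural progenitor genes, of which the intermediate filament gene NES gave most, was 214 to 243 in hnRNPA1 control soma and 295 to 342 in knockdown soma, and 423 to 537 and 540 to 681 in the matching neurites. In the TDP-43 experiment it was 191 to 247 and 261 to 296 in soma and 359 to 430 and 453 to 545 in neurites. In untreated neurons it was 44 to 50.7 in soma and 107 to 148 in neurites. It was thus higher in neurites than in soma and higher after either knockdown. The sum of 5 cell cycle genes was also higher in neurites, at 21.6 to 28 CPM against 10.9 to 11.8 in soma of hnRNPA1 controls, 20.7 to 27.4 against 8.89 to 10.3 in TDP-43 controls and 34.6 to 44.7 against 18.4 to 30.6 in untreated neurons. The sum of 7 glial genes, of which MBP gave most, was 17.8 to 21.9 CPM in TDP-43 control soma and 13.2 to 16.1 in knockdown soma, with no overlap, and 13.4 to 17.9 and 10.7 to 16.6 in the matching neurites, which overlapped. The part of these markers in the UNC13 results was not tested. The sum of 10 neuronal markers was 6780 to 7390 CPM in TDP-43 control soma and 6520 to 7350 in knockdown soma, ranges that overlapped. In the matching neurites, with the libraries rich in 7SL RNA included, it was 7610 to 9350 and 10300 to 11400, higher after knockdown. The part of the neuronal sum in the UNC13 results was not tested either.

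The other genes of vesicle priming and release, a list of 52, put the family in context. After TDP-43 knockdown 14 of the 52 fell and 5 rose in soma (list median -0.08, all genes 0.02), where 9.53% and 9.41% of all genes were called lower and higher. In neurites 11 fell and 15 rose (list median 0.02, all genes -0.03), where 10.9% and 14% of all genes were called. Without the 3 libraries rich in 7SL RNA, 12 fell and 12 rose in neurites, beside 9.03% and 12.7% of all genes. In soma 19 fell and 5 rose in that fit, beside 12.3% and 10.1% of all genes. With scaling by total counts 3 fell and 9 rose in neurites, beside 3.58% and 8.14% of all genes, and 8 fell and 3 rose in soma, beside 4.1% and 3.52%.

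Among relatives that share the MUN domain, CADPS, a priming factor of dense-core vesicles, fell by 0.58 ± 0.05 in soma (adjusted p = 3e-09) and by 0.46 ± 0.05 in neurites (adjusted p = 1.1e-07). BAIAP3, which acts in dense-core vesicle traffic, fell by 0.83 ± 0.07 in soma (adjusted p = 1.8e-10) and by 0.27 ± 0.07 in neurites (adjusted p = 0.0092). UNC13D, the family member of blood cells, was at 0 to 4.63 CPM in all libraries and did not pass the test after TDP-43 knockdown (-0.32 ± 0.17 in soma, adjusted p = 0.21, and 0.01 ± 0.29 in neurites, adjusted p = 0.99). It was too low to be tested in untreated neurons. Of the 8 calcium sensors and clamps, 4 rose and 2 fell in soma, beside 9.41% and 9.53% of all genes. In neurites 5 rose and 2 fell, beside 14% and 10.9% of all genes. DOC2B, a calcium sensor that binds UNC13 proteins, rose by 1.05 ± 0.09 in soma (adjusted p = 2.4e-10) and 1.26 ± 0.08 in neurites (adjusted p = 8.1e-12). CPLX2, a complexin that clamps SNARE complexes, rose by 0.77 ± 0.07 (adjusted p = 7.8e-10) and 1.25 ± 0.06 (adjusted p = 3.9e-14). RPH3A, a RAB3 effector, fell by 0.95 ± 0.08 (adjusted p = 1.6e-10) and 0.97 ± 0.10 (adjusted p = 1.4e-08).

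Of the 4 small G proteins that recruit release factors to vesicles, 3 fell in soma and 2 in neurites, beside 9.53% and 10.9% of all genes. RAB3B was at -0.78 ± 0.08 (adjusted p = 1e-08) and -0.48 ± 0.08 (adjusted p = 3.8e-05). Of the 13 active zone partners, which include the RIM proteins that anchor UNC13A, 1 fell and none rose in soma, while 6 rose and 1 fell in neurites. Of all genes, 9.53% fell and 9.41% rose in soma, and 14% rose and 10.9% fell in neurites. SYT1, the main calcium sensor of fast release, rose by 0.48 ± 0.06 in soma (adjusted p = 1.2e-06) and 0.39 ± 0.06 in neurites (adjusted p = 1.6e-05). CACNA1B, a presynaptic calcium channel, rose by 0.33 ± 0.07 in soma (adjusted p = 0.00062) and 0.58 ± 0.07 in neurites (adjusted p = 1.8e-07). The interaction of TDP-43 knockdown and fraction was called higher for 13 of the 52 and lower for none at this threshold, beside 5.81% and 4.67% of all genes. The counts were 9 and 1 without the 3 libraries rich in 7SL RNA, beside 6.08% and 4.22%. They were 0 in either direction with scaling by total counts, beside 0.591% and 0.899% of all genes. The 3 largest were BAIAP3 (0.57 ± 0.10, adjusted p = 0.00054), PPFIA4 (0.53 ± 0.16, adjusted p = 0.028) and BSN (0.51 ± 0.12, adjusted p = 0.0053), the last a scaffold of the active zone.

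**Figure D5:**
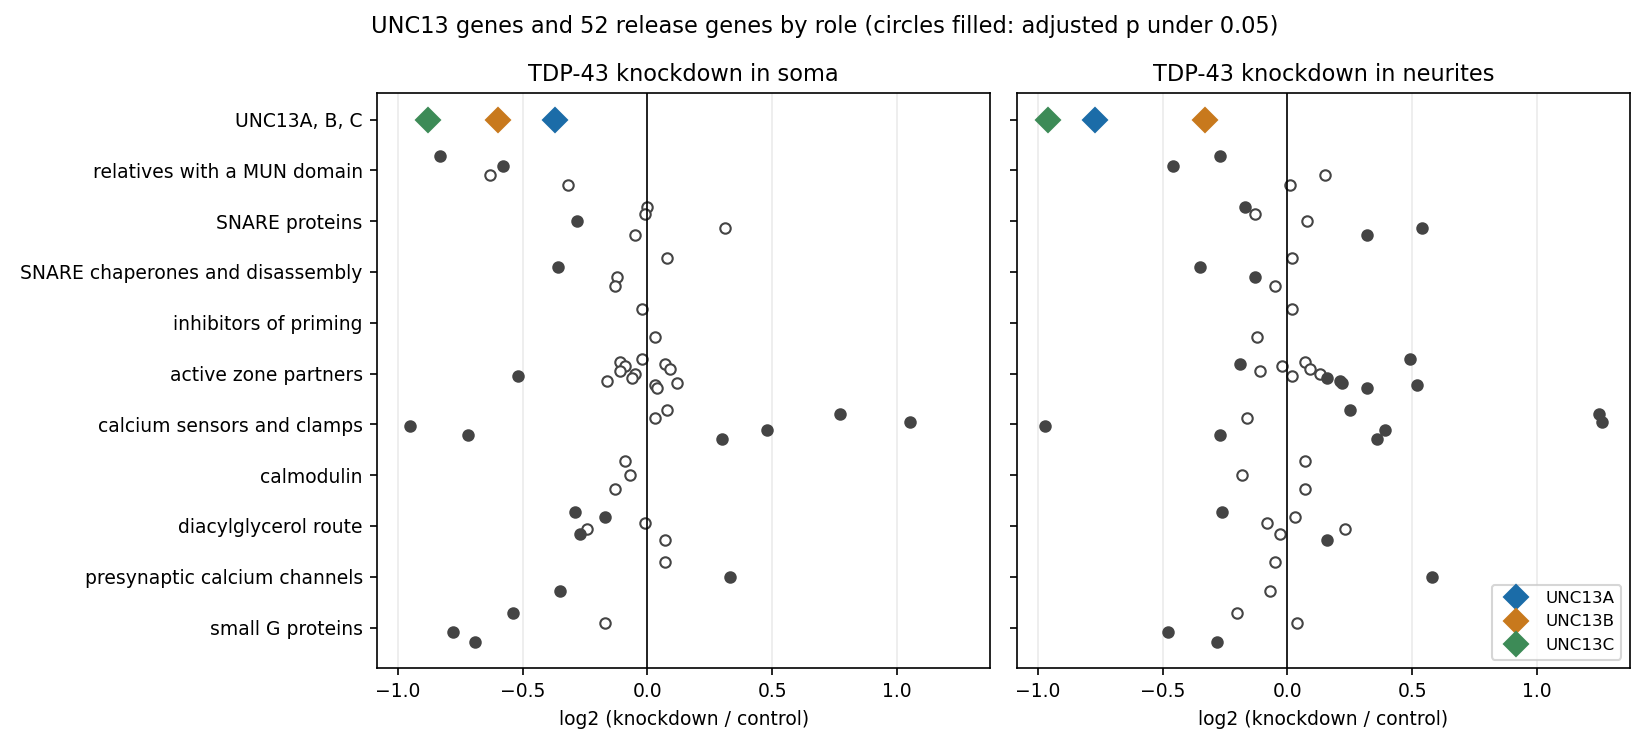
Log2 change with TDP-43 knockdown in soma (left) and neurites (right) of UNC13A, UNC13B and UNC13C (diamonds) and of 52 other release genes by role (circles, filled where adjusted p is under 0.05). The diamonds lie between -0.33 and -0.96, while the calcium sensors and clamps spread from -0.95 to 1.05 in soma and from -0.97 to 1.26 in neurites.

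After hnRNPA1 knockdown 4 of 52 rose and 4 fell in soma, beside 3.79% and 3.3% of all genes called higher and lower, and 8 rose and 12 fell in neurites, beside 8.96% and 7.21% of all genes called higher and lower there. With scaling by total counts 3 rose and 24 fell in neurites, beside 3.05% and 19.3% of all genes. In soma CADPS2, a relative with a MUN domain, rose by 0.88 ± 0.19 (adjusted p = 0.0033), STXBP5, the priming inhibitor tomosyn, by 0.29 ± 0.06 (adjusted p = 0.001), and SYT2, a calcium sensor, by 0.65 ± 0.07 (adjusted p = 1.6e-07). SYT2 also rose in neurites by 0.50 ± 0.08 (adjusted p = 3.1e-05), as did PPFIA4, a liprin, by 0.44 ± 0.07 (adjusted p = 1.7e-05). RAB27B (-0.29 ± 0.09, adjusted p = 0.031) and RAB3C (-0.29 ± 0.06, adjusted p = 0.0016) fell in soma. Those with the largest falls in neurites were RAB3C (-0.46 ± 0.06, adjusted p = 1.9e-06), ERC2, an active zone scaffold (-0.39 ± 0.07, adjusted p = 8.9e-05), and RIMS1, a RIM protein (-0.39 ± 0.08, adjusted p = 0.0011), beside -0.80 for UNC13C. In soma ERC2 was at -0.13 ± 0.07 (adjusted p = 0.25) and RIMS1 at -0.11 ± 0.08 (adjusted p = 0.5). UNC13D rose in neurites by 0.75 ± 0.24 (adjusted p = 0.028), from 0.974 to 1.76 CPM in controls to 1.85 to 2.90 in knockdown. These levels rest on only 11 to 20 counts per library in controls and 12 to 22 in knockdown. In soma UNC13D was at 0.34 ± 0.16 (adjusted p = 0.23).

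Between fractions, the list held genes with ratios as high as that of UNC13C. In untreated neurons 32 of the 51 list genes tested were higher in neurites and 6 lower, beside 28.7% and 27.8% of all genes (list median 0.39, all genes -0.21). The highest were RIMS1 (4.16 ± 0.13), RIMS2 (3.82 ± 0.12) and ERC2 (3.01 ± 0.11), beside 4.10 for UNC13C. With scaling by total counts 9 were higher and 35 lower, beside 11% and 80.4% of all genes (medians -0.85 and -1.43). In hnRNPA1 controls 23 of 52 were higher and 9 lower, beside 23.5% and 24.9% of all genes. RIMS1 was at 1.68 ± 0.08, CADPS2 at 1.38 ± 0.19 and RIMS2 at 1.25 ± 0.06. The list counts became 9 and 34 with scaling by total counts, beside 9.65% and 61.2% of all genes. In TDP-43 controls 17 were higher and 13 lower, beside 24.1% and 22.3% of all genes. CADPS2 was highest there at 2.04 ± 0.29, followed by RIMS1 at 1.93 ± 0.07 and RIMS2 at 1.42 ± 0.07 (largest adjusted p of these 9 values 1.1e-06). The list counts there were 19 and 11 without the libraries rich in 7SL RNA, beside 22.2% and 21.1% of all genes. They were 5 and 40 with scaling by total counts, beside 8.59% and 66%. CADPS2 in untreated neurons was at 0.29 ± 0.29 (adjusted p = 0.39). BAIAP3 was lower in neurites by 1.28 ± 0.24, 1.00 ± 0.09 and 1.01 ± 0.07 in the same order (largest adjusted p = 0.00013), and UNC13D by 1.03 ± 0.20 and 1.1 ± 0.23 in the controls (adjusted p = 5.5e-05 and 0.00021). DOC2A, a calcium sensor, was lower by 0.69 ± 0.23, 0.70 ± 0.08 and 0.99 ± 0.09 (largest adjusted p = 0.013), and the calcium channel gene CACNA1E by 0.51 ± 0.12 in untreated neurons (adjusted p = 0.0013).

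The genes whose levels followed each member most closely were found by Pearson's r of log2 CPM. Over the 19 libraries of the TDP-43 experiment, among 8994 protein-coding genes, these were BRINP3, GIT2 and PPP2R3A for UNC13A (r from 0.916 to 0.921), HS6ST3, CDC25A and DNAAF9 for UNC13B (0.953 to 0.968), and SLC8A1, FTO and DGKH for UNC13C (0.958 to 0.992). Over the means of all 10 groups, among 9198 genes, they were UPRT, CNOT1 and RND3 for UNC13A (0.929 to 0.950), ATP8A1, SUMO3 and PALB2 for UNC13B (0.947 to 0.964), and MTA3, STAU2 and EMB for UNC13C (0.986 to 0.993). No gene was in both sets for any member. Among the members themselves, UNC13B and UNC13C went together most (r = 0.853 over the 19 libraries and 0.850 over the 10 means), UNC13A and UNC13B had 0.518 and 0.076, and UNC13A and UNC13C had 0.317 and -0.361. These are descriptions over points that share cell line, depth and the differences between groups, and untreated neurites set much of the spread of UNC13B and UNC13C in the means.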

How the data were processed

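RNA of soma and neurite fractions was sequenced in 52 libraries. Reads were aligned with STAR 2.7.11b and counted per gene with featureCounts of Subread 2.0.6 on hg38, per the submitters' processing notes; which annotation was used, whether by strand, and how multimapping reads were counted was not given in the sources used here. The values the authors deposited are estimated counts per gene: 81.1% of nonzero values are whole (within 0.005), and the rest are fractional. They were rounded here. One library under 100000 counts was left out. Symbols came from a name list that matched 62666 of the 63241 identifiers, and positions, exon lengths and transcript sequences from GENCODE release 29 (58228 matched).

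Each experiment was fitted alone in edgeR 4.0.16 (R 4.3.3; TMM scaling, its filter on low counts, quasi-likelihood test), with adjusted p (Benjamini-Hochberg) over all genes tested and a threshold of 0.05. Knockdown effects were compared in a fit of both experiments, and ratios of untreated and control neurons in a fit of those libraries. Intervals are 95% intervals of the log2 change. CPM values were computed here. The script was tested on simulated data. DESeq2 1.42.0, limma 3.58.1, other scalings, no filter, 7SL genes removed, all libraries in 1 fit, a replicate block and each library left out were alternatives; leaving out the 3 libraries over 30% 7SL RNA was chosen after the data were seen.

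Sample numbers carried no stated pairing. Deviations from group means correlated above 0.1 in every same-numbered pair only between TDP-43 knockdown soma and neurites (4 pairs, 0.14 to 0.29) and between TDP-43 control and knockdown soma (3 pairs, 0.14 to 0.32). No 2 libraries of a group agreed within sampling noise (108 pairs, lowest chi-square per degree of freedom 1.91). The genes named from the release list are UNC13D and the 3 largest changes called in each direction, for each knockdown in each fraction, for the TDP-43 interaction and for fractions in untreated and control neurons, with some of their values elsewhere and some genes not reported here; genes alike in pattern are the 3 with the highest r (prior count 2, mean of at least 10 CPM). The family, the lists and the tests were chosen with earlier results of these data known.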

Additional observations from a re-analysis of the deposited data

Results flagged for a closer look

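Differences between effects that passed a test of the difference itself (edgeR, adjusted p under 0.05) are collected here as log2 values. The hnRNPA1 knockdown effect on UNC13C was lower in neurites than in soma by an interaction of -0.61. The TDP-43 knockdown effect differed between fractions for UNC13A (-0.40) and, in the other direction, for UNC13B (0.27). The TDP-43 effect minus the hnRNPA1 effect was -0.50 for UNC13A, -0.60 for UNC13B and -0.68 for UNC13C in soma, and -0.80 for UNC13A and -0.25 for UNC13B in neurites. The neurite-to-soma ratio in untreated neurons minus that in hnRNPA1 controls was -0.45 for UNC13A, 0.93 for UNC13B and 2.40 for UNC13C, and minus that in TDP-43 controls it was 1.1 for UNC13B and 2.66 for UNC13C. The ratio of UNC13A in hnRNPA1 controls minus that in TDP-43 controls was 0.41. Among the 30 groups of values of the 3 genes, Dixon's test flagged 0 samples. With 4 to 6 values per group it finds only a wide gap, and low values can hide each other. The low UNC13C values of TDP-43 control neurite samples 4 and 5 (83.1 and 101 CPM) were thus not flagged.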

How the results depend on the processing

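Of 48 results on the 3 genes, 34 were called, and 18 of these kept direction and call under every alternative and left-out library that was run, among 1131 values compared. Each member had at least 279 counts in every library, and no values at matched depth were computed. Where a value changed as given here, the cause was not tested. With scaling by total counts, 6 called results reversed. Neurite-to-soma ratios of UNC13A became -1.08 in untreated neurons, -0.02 and -0.19 in hnRNPA1 controls and knockdown and -0.59 in TDP-43 controls, and those of UNC13B -0.09 and -0.25 in hnRNPA1 controls and knockdown and -0.48 and -0.14 in TDP-43 controls and knockdown. Knockdown effects of hnRNPA1 became -0.09 for UNC13A in neurites, -0.05 for UNC13B in soma and, past the threshold, -0.20 for UNC13B in neurites. Calls were lost for TDP-43 knockdown in UNC13A soma (-0.37) and UNC13B neurites (-0.26) and for its interaction in UNC13A (-0.35) and UNC13B (0.34). The difference between knockdowns lost its call in UNC13A soma (-0.45) and UNC13B neurites (-0.06), and UNC13C in neurites became 0.03. The UNC13B ratio of untreated minus hnRNPA1 controls lost its call too (0.33, all-gene median -1.01). UNC13A of untreated minus TDP-43 controls was called (-0.48, all-gene median -0.92). With DESeq2 or its size factors the UNC13A ratio differences were 0.36 (hnRNPA1 minus TDP-43 controls) and -0.26 (untreated minus hnRNPA1 controls), both no longer called, and 0.10 (untreated minus TDP-43 controls); without 7SL genes the first was 0.38, not called. In 1 fit of all libraries, UNC13A was -0.06 in TDP-43 controls and -0.11 in untreated neurons, UNC13B -0.02 for hnRNPA1 knockdown in soma and 0.07, not called, in TDP-43 controls. With no filter, UNC13A was -0.08 and UNC13B 0.05, not called, in TDP-43 controls, UNC13B was -0.02 for hnRNPA1 knockdown in soma, and the UNC13B interaction (0.26), difference between knockdowns in neurites (-0.23) and ratio after hnRNPA1 knockdown (0.15) lost their calls, while UNC13C was called for hnRNPA1 knockdown in soma (-0.22). UNC13A in TDP-43 controls was -0.0018 with limma-voom. With the replicate block it was -0.0094, and the block changed no call on the 3 genes, while the hnRNPA1 interaction was called for 55 genes in place of 35. Without the libraries rich in 7SL RNA the UNC13C interaction with TDP-43 knockdown was called (-0.24), and the UNC13A ratio of hnRNPA1 minus TDP-43 controls was no longer called (0.29), with 371 genes called in that contrast in place of 900. Counts of all genes called became, with scaling by total counts, 2580 and 1677 for TDP-43 knockdown in neurites and soma, 328 and 71 for the TDP-43 and hnRNPA1 interactions, 1293 for the difference between knockdowns in soma, 1360 for the ratio of hnRNPA1 minus TDP-43 controls, and 16427, 14532 and 16965 for fractions in TDP-43 controls, hnRNPA1 knockdown and untreated neurons. In 1 fit of all libraries they were 1519, 8 and 16100 for the TDP-43 interaction, the hnRNPA1 interaction and untreated fractions, and for the hnRNPA1 interaction 72 with DESeq2 and 140 with no filter. Leaving out 1 library gave 0.34 to 0.46 for UNC13A in the ratio of hnRNPA1 minus TDP-43 controls (highest adjusted p = 0.11), -0.14 to 0.03 in untreated minus TDP-43 controls and -0.05 to 0.07 in TDP-43 controls. It gave -0.0058 to 0.03 for UNC13B with hnRNPA1 knockdown in soma, 0.11 to 0.16 for UNC13B in TDP-43 controls and -0.69 to -0.54 for the UNC13C interaction with hnRNPA1 knockdown, and 12 to 73 and 488 to 1060 genes for that interaction and the ratio of hnRNPA1 minus TDP-43 controls.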
